A study of Glycine max with 24 samples.

Results

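The transcripts described here gave a high and steady signal through soybean seed fill. They are the 100 probesets, of 37641 soybean probesets on the array, that met a rule with 2 steps. First, the log2 signal had to be at least 11, a signal of 2048, on all 24 arrays, which 1528 probesets met. Then the 100 with the lowest standard deviation (SD) of log2 signal over the 24 arrays were kept, which leaves 1428 other abundant probesets. A probeset is a group of short probes read together as a single value for a transcript. Since every array entered the choice, the levels, spreads and changes of these 100 steady probesets are descriptions and none of them carries a test.

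The seed came from a pair of near-isogenic soybean lines grown in a growth chamber. HiPro (germplasm ld04-15154) carries at a seed protein locus of linkage group I the high protein allele of the wild soybean Glycine soja, and LoPro (ld04-15146) carries at that locus the Glycine max allele; both have the same cultivated background, and each line is a single derived line. Whole developing seed was taken at 4 stages set by seed weight, where stage 1 seed weighed 25 to 50 mg, stage 2 seed up to 100 mg, stage 3 seed up to 200 mg and stage 4 seed up to 300 mg. Each of the 8 groups held 3 arrays. A replicate pooled the seed of 3 plants. By the study's methods these plants gave all 4 stages of their replicate, so 6 plant pools stand behind the 24 arrays.

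Seed fill is the period in which cell division in the embryo has largely ended, the cells enlarge, and messages for storage proteins and oil body proteins come to make up much of the RNA. Messages for general cell upkeep, such as protein degradation, the cytoskeleton, membrane water channels and 14-3-3 adaptor proteins, are read in nearly every plant cell. A transcript of steady level is sought as a reference gene, the internal yardstick against which other transcripts are scaled in quantitative RT-PCR, and actin, tubulin, ubiquitin, elongation factor 1-alpha and cyclophilin are the usual choices in plants.

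The deposited signals were scaled by the authors with MAS5, and the 2% trimmed mean lay between 500.14 and 500.17 on every array, so a signal is a level relative to the other probesets of its array. In whole seed, fewer cells of a type and less RNA per cell cannot be told apart. Median signals ran from 198 to 229 over the arrays, and replicates of a group correlated at 0.941 to 0.966 on the log2 scale. The deposited values were checked against markers of seed and of other tissues. Below, a probeset outside the 100 is said to have risen or fallen when the limma test of stage 4 against stage 1 gave an adjusted p (Benjamini-Hochberg over all 37694 probesets tested) under 0.05 and a change of at least 1.5-fold. Of 12 probesets for seed storage genes, 9 rose in HiPro and 7 in LoPro, or 5 and 5 after quantile normalization, which forces all arrays onto a single distribution of signals. In LoPro 1 of the 12, for CG-1, fell. Over all 37694 probesets tested, 24.2% had risen or fallen in HiPro and 21.7% in LoPro, as deposited. Glycinin GY3 rose by 6.40 and 5.14 on the log2 scale (limma adjusted p = 1.4e-07 in HiPro and 2.2e-06 in LoPro). Storage messages of seed were thus present. The 3 nodule probesets stayed between signals of 2 and 690. The 5 probesets of the leaf gene CAB3, a chlorophyll a/b-binding protein, included 3 at the level threshold and reached a signal of 17757. As deposited, none was called in HiPro and 2 fell in LoPro. After quantile normalization 2 fell in HiPro and 3 in LoPro, and with each array centred on its median 0 and 1 fell. The seed coat gene ANR1, an anthocyanidin reductase, had log2 changes of -6.67 in HiPro and -6.76 in LoPro (limma adjusted p = 1.2e-08 and 1.5e-08), and the other seed coat marker, the peroxidase gene Ep, rose by 1.49 and 1.98 (limma adjusted p = 5.4e-06 and 2.5e-07). The part of these tissues in the results below was not tested.

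The steady probesets had SDs of 0.054 to 0.125 on the log2 scale, with a median of 0.11, and the other abundant probesets had 0.125 to 1.08, with a median of 0.24. The highest of the 24 signals was 1.15 to 1.48 times the lowest for a steady probeset, with a median of 1.35, against a median of 1.84 for the other abundant probesets. The spread among the 3 replicates of a group had a median SD of 0.09 in the steady probesets, and the spread among the 8 group means had a median SD of 0.07. In the other abundant probesets these medians were 0.17 and 0.18. A mean of 3 arrays varies less than a single array, so the 2 kinds of spread cannot be set against each other directly. The rule kept both low in the steady probesets.

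The steady probesets had mean log2 levels of 11.20 to 13.23, with a median of 11.77, and the other abundant probesets had a median of 12.35. Between 11 and 12, 64 of 540 abundant probesets (11.9%) were steady ones; between 12 and 13, 31 of 651 (4.76%); and at 13 or more, 5 of 337 (1.48%). The median SD over all abundant probesets in these bands was 0.19, 0.23 and 0.29. Across the 1528 abundant probesets, which share all arrays and their scaling, the SD went with the mean level at a Spearman coefficient of 0.44. As probes differ in how strongly they bind, a brighter probeset need not stand for a more abundant transcript.

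**Figure D1:**
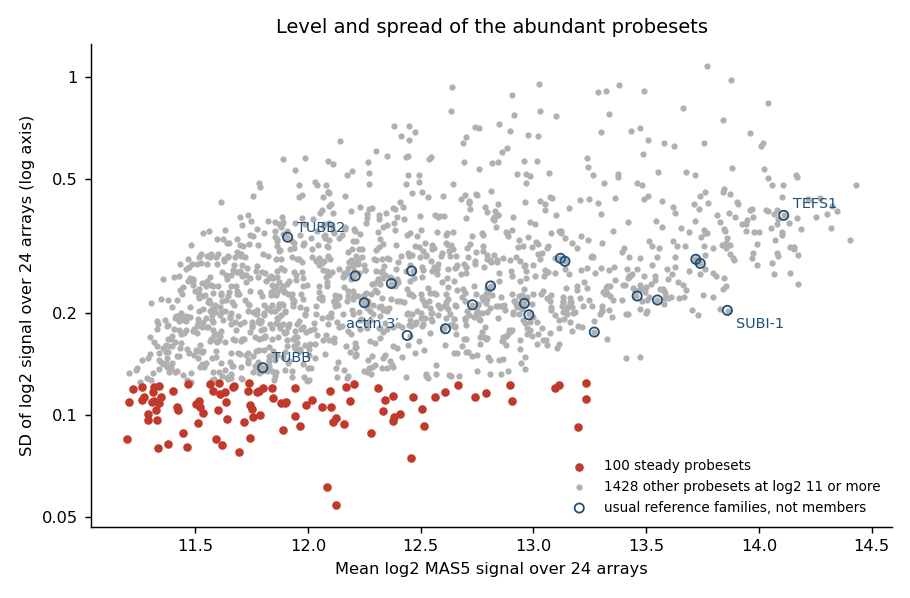
Mean log2 signal over the 24 arrays (x axis) and SD of the log2 signal (y axis, log scale) of the 1528 abundant probesets. Red points are the 100 steady probesets, grey points the other 1428, and blue rings mark usual reference gene families. The steady probesets lie below an SD of 0.125 and mostly to the left, and TEFS1, at an SD of 0.39, stands far above them.

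The limit between steady and other probesets fell in a dense part of the distribution. The last 5 inside were Gma.16923.1.A1_s_at, Gma.6495.1.S1_at, LOC547628 and PIP2-1, each with an SD of 0.124, and Gma.1518.2.S1_a_at with 0.125. The first 5 outside were LOC100818012 and KASII-A with 0.125, Gma.6413.1.S1_at with 0.126, and Gma.10862.2.S1_x_at and a second probeset of SOYAP1 with 0.127. KASII-A codes for a ketoacyl-ACP synthase, which lengthens fatty acids in the plastid. A place just inside or outside the list therefore rests on differences in the third decimal.

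Of the 100 steady probesets, 48 were paired with exactly 1 gene symbol in the array's annotation table, 4 with several and 48 with none. The 48 stand for 45 genes, of which 35 carry only a numbered locus symbol and 10 an informative one. In all, 94 design clusters of the array were represented, and 5 clusters gave 11 of the probesets, which thus share target sequence. Probesets with the plain suffix _at numbered 55. Another 25 ended in _s_at and 8 in _x_at, which mark probes that similar transcripts can share, and 12 ended in _a_at, for alternative transcripts of a gene. For the 45 with such suffixes the signal may be a sum over similar transcripts. Among the other abundant probesets the shares were 52.0% for _at, 29.8% for _s_at, 9.38% for _x_at and 8.82% for _a_at.

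The steadiest probeset was Gma.3977.1.S1_s_at, with an SD of 0.054. Its signal ran from 4182 through a median of 4438 to 4814 on the 12 HiPro arrays, and from 4247 through 4422 to 4685 on the 12 LoPro arrays. Its mean log2 levels at stages 1 to 4 were 12.09, 12.14, 12.16 and 12.13 in HiPro and 12.13, 12.12, 12.14 and 12.09 in LoPro. The arrays of both lines covered the same span, with no stage set apart.

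Gma.5383.1.S1_a_at followed with an SD of 0.061, and its signals were 4015 to 4669 in HiPro (median 4445) and 4069 to 4572 in LoPro (median 4285). Next were Gma.10823.1.S1_at at 0.075, Gma.11321.2.S1_x_at at 0.078 and Gma.11321.2.S1_at at 0.080. Both Gma.11321 probesets come from a single design cluster and read related sequence. Gma.3353.1.S1_at and Gma.14379.1.A1_at had 0.082, and Gma.7498.1.S1_at and Gma.4918.1.S1_at had 0.085. These 9 probesets carry no gene symbol here, so no role is given for them.

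GF14B, a 14-3-3 protein that binds phosphorylated partners, was the steadiest with an informative symbol, at an SD of 0.080. Its signals were 2334 to 2731 in HiPro (median 2608) and 2274 to 2772 in LoPro (median 2567). GF14A, another 14-3-3 protein, had 2701 to 3568 in HiPro (median 2903) and 2724 to 3253 in LoPro (median 3040), with an SD of 0.101. In both genes the lines overlapped over nearly the whole range, and a single HiPro array gave the highest GF14A signal.

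The remaining 13 probesets of this family, across all signal levels, were less alike. Probesets of SGF14G, SGF14n and SGF14f, which code for further 14-3-3 proteins, fell in both lines, 5 probesets in all. None of the 13 rose in either line. The background over all probesets tested was 24.2% called in HiPro and 21.7% in LoPro, in either direction. With each array centred on its median, 2 of the 5 fell in HiPro and 2 other probesets rose there, and in LoPro all 5 fell and none rose. SGF14n had signals of 446 to 2028 in HiPro (median 1582) and 433 to 2176 in LoPro (median 1035). Its log2 change was -1.56 ± 0.28 (SE) in HiPro and -1.57 ± 0.28 in LoPro (limma adjusted p = 0.00024 and 0.00028), and both calls held under all 15 alternatives run. SGF14G fell by 0.61 ± 0.17 in HiPro and by 0.75 ± 0.17 in LoPro on its plain _at probeset (limma adjusted p = 0.01 and 0.0028), although the HiPro call was lost under 5 of 16 alternatives (median centring, without HiPro replicate 1 or 3, or without its stage 1 array of replicate 3 or stage 4 array of replicate 1), and the LoPro call without LoPro stage 4 replicate 1.

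PAA1 and PAE1 code for alpha subunits of the 20S proteasome, the barrel that degrades tagged proteins. PAA1 had signals of 2359 to 2911 in HiPro (median 2600.0) and 2204 to 2868 in LoPro (median 2581), at an SD of 0.097. PAE1 had 3897 to 4819.5 in HiPro (median 4272) and 3724 to 4958 in LoPro (median 4138), at an SD of 0.106. The PAE1 level at stage 4 was below that at stage 1 by log2 values of -0.13 ± 0.08 (SE) in HiPro and -0.27 ± 0.08 in LoPro. All 3 LoPro arrays of stage 4 lay below all 3 of stage 1. The other 3 probesets of these genes were not called in HiPro, and 1 of them, a dim PAE1 probeset with signals of 10 to 50, was called in LoPro (under 6 of 15 alternatives).

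ADF1, an actin-depolymerizing factor that severs and turns over actin filaments, was present through 3 probesets. The brightest, Gma.6150.2.S1_s_at, had signals of 8483 to 9901 in HiPro (median 9342) and 8592 to 10848 in LoPro (median 9741), at an SD of 0.092. The other 2 had SDs of 0.104 and 0.123. All 3 end in _s_at or _x_at, and so can share probes and similar transcripts. ADF1 also had 2 dimmer plain _at probesets outside the list. Gma.6150.1.S1_at had signals of 87 to 160 and an SD of 0.226. GmaAffx.88908.1.S1_at had signals of 289 to 587 and an SD of 0.295, and it passed the F test among the 8 groups (limma adjusted p = 0.042). Neither rose or fell in either line, and all soybean probesets below a mean log2 level of 11 had a median SD of 0.39.

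EF1BGAMMA4, which by its symbol codes for a gamma subunit of the elongation factor 1B complex that recharges elongation factor 1-alpha, had an SD of 0.118. Its signals were 2993 to 3925 in HiPro (median 3635) and 2840 to 3802 in LoPro (median 3541). TEFS1, the elongation factor 1-alpha gene itself, behaved otherwise on its bright probeset, with signals of 10122 to 25822 in HiPro and 12277 to 24494 in LoPro. It was higher at stage 4 than at stage 1 by 0.94 ± 0.20 in HiPro (limma adjusted p = 0.00088), and the LoPro value was 0.33 ± 0.20 (adjusted p = 0.23). After quantile normalization that HiPro change was -0.01 and the SD of this probeset was 0.05, against 0.39 as deposited.

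ALDH10A1, a betaine aldehyde dehydrogenase, had signals of 4322 to 5324 in HiPro (median 4932) and 4568 to 5454 in LoPro (median 5043), at an SD of 0.089. Its change between stages 4 and 1 was 0.08 ± 0.09 in HiPro and -0.07 ± 0.09 in LoPro. A second probeset of the gene, from another design cluster, had -0.36 ± 0.14 in HiPro (limma adjusted p = 0.056) and fell in LoPro by 0.60 ± 0.14 (adjusted p = 0.0032). That LoPro call held under 10 of 15 alternatives, and was lost after median centring, without LoPro replicate 1 and without its stage 1 array or the stage 4 array of replicate 1 or 3. Of 11 aldehyde dehydrogenase probesets that were not steady ones, ALDH5F2 rose in both lines (0.81 ± 0.10 in HiPro and 0.66 ± 0.10 in LoPro). ALDH2B4 and ALDH2C8 fell in both, the LoPro call of ALDH2C8 under 8 of 15 alternatives. The shares called over all probesets tested were 24.2% in HiPro and 21.7% in LoPro.

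SOYAP1, an aspartic proteinase of a kind that acts in vacuoles, had an SD of 0.122. Its signals were 2366 to 2858 in HiPro (median 2497) and 2228 to 3074 in LoPro (median 2674), and its change between stages 4 and 1 was 0.14 ± 0.09 in HiPro and 0.27 ± 0.09 in LoPro. A second SOYAP1 probeset and that of its relative SOYAP2 were just outside the list, each with an SD of 0.13.

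PIP2-1, a water channel of the plasma membrane, had signals of 7738 to 10213 in HiPro (median 9601) and 8758 to 11427 in LoPro (median 9885), at an SD of 0.124. Its mean log2 levels at stages 1 to 4 were 13.02, 13.21, 13.27 and 13.25 in HiPro and 13.29, 13.24, 13.40 and 13.17 in LoPro. HiPro at stage 1 was the lowest group. The other PIP2-1 probeset, Gma.14992.1.S1_at, fell by 1.13 ± 0.14 in HiPro (limma adjusted p = 3e-06) and by 0.90 ± 0.14 in LoPro (adjusted p = 4.9e-05), and both calls held under all 15 alternatives run. Its signals were 633 to 1837 in HiPro and 718 to 1816 in LoPro. The 2 probesets given to this gene thus do not move together, and which transcripts each reads was not tested.

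The 25 probesets of plasma membrane aquaporins had a median SD of 0.35, near the 0.37 over all soybean probesets, and the 9 at the level threshold had 0.25, near the 0.24 of the other abundant ones. Of the 24 probesets beside the steady one, 6 rose and 9 fell in HiPro, 1 rose and 8 fell in LoPro, and 1 rose and 7 fell in both, where 24.2% of all probesets tested were called in HiPro and 21.7% in LoPro. After quantile normalization 3 rose and 8 fell in HiPro. PIP1-6 had signals of 1730.0 to 9002 in HiPro (median 5713) and 1319 to 10485 in LoPro (median 5279), and fell by 2.13 ± 0.18 in HiPro and by 2.56 ± 0.18 in LoPro (limma adjusted p = 3.7e-08 and 1.5e-08). PIP2-4, PIP2-13, PIP1-1 and PIP1-4 fell in both lines too. PIP1-7, on its brightest _s_at probeset, had 0.84 ± 0.15 in HiPro (adjusted p = 0.00024), which was 0.11 and not called after quantile normalization.

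CYP34, a cyclophilin that helps proteins fold by turning proline bonds, was the one steady probeset from the usual reference families. Its signals were 6738 to 8366 in HiPro (median 7747) and 6945 to 9711 in LoPro (median 7584), at an SD of 0.122. The LoPro change between stages 4 and 1 was -0.29 ± 0.10, the largest in that line, and the highest signal was on 1 LoPro array of stage 1. The 3 other CYP34 probesets did not move one way. The dimmer Gma.11072.1.S1_at, with signals of 861 to 1869 in HiPro and 881 to 1381 in LoPro, fell in HiPro by 0.73 ± 0.12 (limma adjusted p = 8.4e-05). The bright GmaAffx.91810.1.S1_s_at was higher by 0.43 ± 0.12 in HiPro (adjusted p = 0.0089), short of 1.5-fold, and GmaAffx.91810.1.A1_s_at had 0.42 ± 0.19 (adjusted p = 0.089). Of the 15 cyclophilin probesets that were not steady ones, 3 fell in each line, and 1 of them, CYP53, in both. Over all probesets tested, 24.2% were called in HiPro and 21.7% in LoPro, and nothing is read from the cyclophilin count. With each array centred on its median, 3 fell in HiPro and 1 in LoPro.

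**Figure D2:**
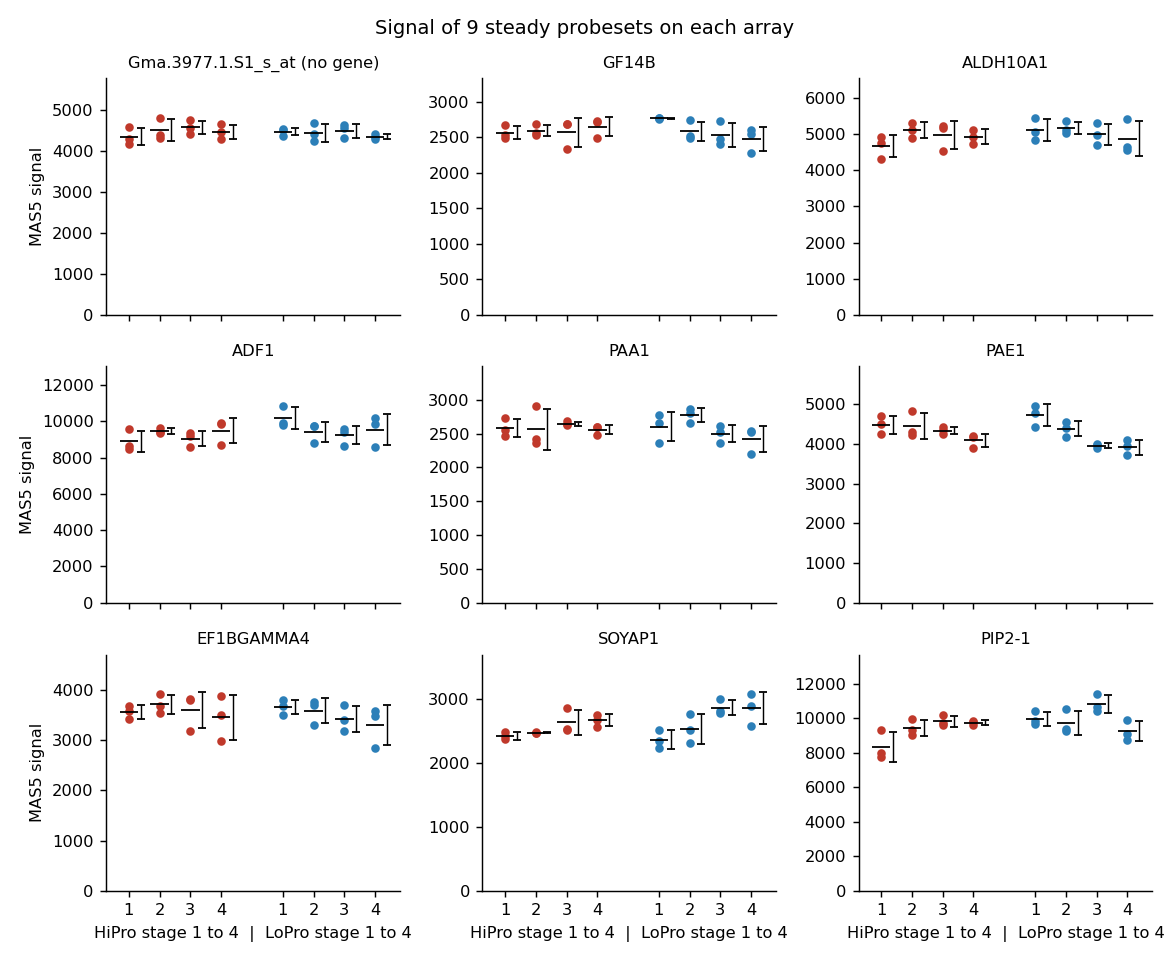
MAS5 signal (y axis, from 0) on each array for 9 steady probesets, by stage (x axis), with the 4 stages of HiPro in red at the left and those of LoPro in blue at the right of each panel. Points are arrays, lines the mean and bars the SD of 3 arrays. The points of Gma.3977.1.S1_s_at stay between 4182 and 4814, and those of PIP2-1 spread from 7738 to 11427.

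Between stages 4 and 1 the steady probesets changed little by construction. In HiPro the log2 change had a median of 0.07 and ran from -0.25 to 0.33, with 76 positive and 24 negative. In LoPro it had a median of -0.02 and ran from -0.29 to 0.27, with 38 positive and 62 negative. The other abundant probesets had medians of 0.31 in HiPro and 0.12 in LoPro. Standard errors of these changes were 0.07 to 0.12 for the steady probesets, so most of their changes were of the size of the error.

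The largest HiPro changes were those of LOC100791620 at 0.33 ± 0.09 (SE), Gma.3626.2.S1_x_at at 0.31 ± 0.09 and Gma.3950.1.S1_s_at at 0.28 ± 0.09. LOC100791620 had signals of 2608 to 3627 in HiPro (median 3059) and 2865 to 3417 in LoPro (median 3150). Its lowest 2 arrays were both of HiPro stage 1. In LoPro the largest changes were those of CYP34, of GmaAffx.92017.1.S1_s_at at -0.27 ± 0.10 and of SOYAP1. Between the lines, over the 4 stages, the largest differences were 0.12 ± 0.05 for LOC100786788, -0.11 ± 0.05 for Gma.1630.1.S1_x_at and 0.10 ± 0.04 for Gma.4918.1.S1_at. The median line difference was 0.01, with a range of -0.11 to 0.12.

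None of the 100 was called at 1.5-fold in HiPro, where 24.2% of all probesets tested and 32.1% of the other abundant ones were called. None was called in LoPro either, against 21.7% and 19.9%. Between the lines none was called, and the background was 0.0982% over all probesets tested. Without the fold limit, 8 had an adjusted p under 0.05 in HiPro and 6 in LoPro, where the background was 31.5% and 28.9%. In the F test of any difference among the 8 groups, 1 passed, LOC100800277, and the background was 32.8%, or 52.7% in the other abundant probesets. After quantile normalization 12 passed the F test, and 16 in HiPro and 12 in LoPro had an adjusted p under 0.05; after median centring these counts were 5, 28 and 2. With the replicate number as a block, 5 passed the F test. As the rule chose on these same arrays, nothing is read from these counts. The 95% intervals of all 3 contrasts lay inside 1.5-fold for all 100, with bounds of at most 0.52 in HiPro, 0.49 in LoPro and 0.21 between the lines. The intervals of the other abundant probesets lay inside 1.5-fold for 35.0%, 48.4% and 99.4% of them. Both the changes and the errors behind the intervals of the 100 were kept small by the rule. Nothing is read from these shares either. The difference between the lines in the stage change was called for no probeset of the array (limma, 0 at an adjusted p under 0.05 and 1862 at an unadjusted p under 0.05). The stage changes given for the 2 lines are therefore not shown to differ.

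**Figure D3:**
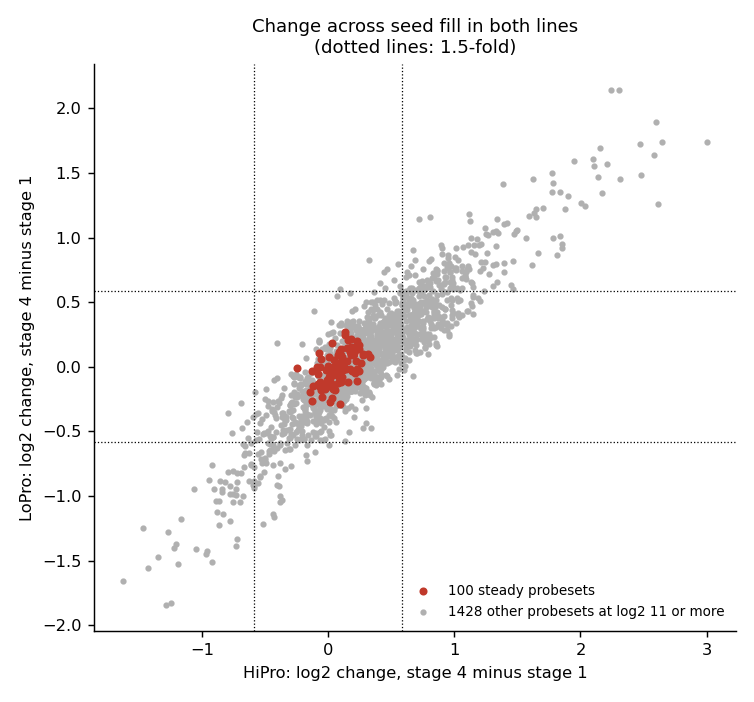
Log2 change of stage 4 over stage 1 in HiPro (x axis) and LoPro (y axis) for the 1428 other abundant probesets in grey and the 100 steady ones in red, with dotted lines at 1.5-fold. The steady probesets lie within -0.25 to 0.33 in HiPro and -0.29 to 0.27 in LoPro, and the cloud of the others leans to the right in HiPro.

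The small movement left in the steady probesets was not evenly spread over the groups. The lowest of the 8 group means was in HiPro stage 1 for 30 of them, LoPro stage 3 for 17 and LoPro stage 4 for 16. The highest was in LoPro stage 1 for 24 and in HiPro stage 4 for 22, and in HiPro stage 1 for 2. Averaged over the 100, single arrays departed from the overall mean by -0.07 to 0.07. The lowest was HiPro stage 1 replicate 1, whose median signal over all probesets was 229, the highest of any array. The highest was HiPro stage 4 replicate 3, whose median signal was 198, the lowest of any array. Across the 24 arrays, this mean departure went with the median log2 signal of the array at a Spearman coefficient of -0.8. The part of the array scaling in this shift was not tested. Taking each array's mean away left a median SD of 0.10, and the mean correlation between pairs of steady probesets over the 24 arrays was 0.12, against 0.17 among the other abundant ones.

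The same rule was also run on the 12 arrays of a single line, and the chosen probesets were read on the 12 arrays of the other line, which had no part in that choice. The 100 chosen in HiPro had a median SD of 0.099 there and 0.121 in LoPro, where all probesets at the level threshold had 0.216. The 100 chosen in LoPro had 0.099 there and 0.127 in HiPro, where all had 0.242. In the line that was read, 97 of those chosen in HiPro and 99 of those chosen in LoPro lay below the median SD, and 90 and 93 of them were at the level threshold. The 2 lists shared 36 of the 100 probesets in each, and all 36 were among the 100 steady ones. As the rule used the arrays of both lines, that last overlap is not independent of it. The lines were grown together and share the array's probes, so this reading is of other arrays and plants but not of other probes.

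Further probesets of the same genes were read as well. Of the 45 genes, 29 had 44 of them. The 19 with a mean log2 level of at least 11 had a median SD of 0.16, from 0.13 to 0.26, against 0.26 over all 2382 other probesets of that mean level. Of these 19, 10 belong to the same design cluster as a steady probeset of their gene and so can share sequence with it. The other 9 belong to other clusters, and the median SD was 0.16 in both sets. Most of these 9 end in _s_at or _x_at, so they too can read transcripts shared with a steady probeset. The split by cluster therefore cannot set shared sequence apart. None of the 19 was called in HiPro, where the share over the 2382 was 37.3%, and 1 (5.26%), ALDH10A1, was called in LoPro, where it was 29%. The 25 dimmer ones had a median SD of 0.29, against 0.39 over all dimmer soybean probesets. Of these 25, 5 were called in HiPro, near the 23.4% of all dimmer probesets, and 2 in LoPro, where the share was 21.3%. GF14A gave an example among the bright ones. Its probeset Gma.16816.1.S1_s_at had signals of 4975 to 8109 in HiPro (median 6203) and 5629 to 8497 in LoPro (median 6878), with a change of 0.55 ± 0.12 in HiPro (limma adjusted p = 0.0011) and 0.38 ± 0.12 in LoPro (adjusted p = 0.018), both short of 1.5-fold.

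**Figure D4:**
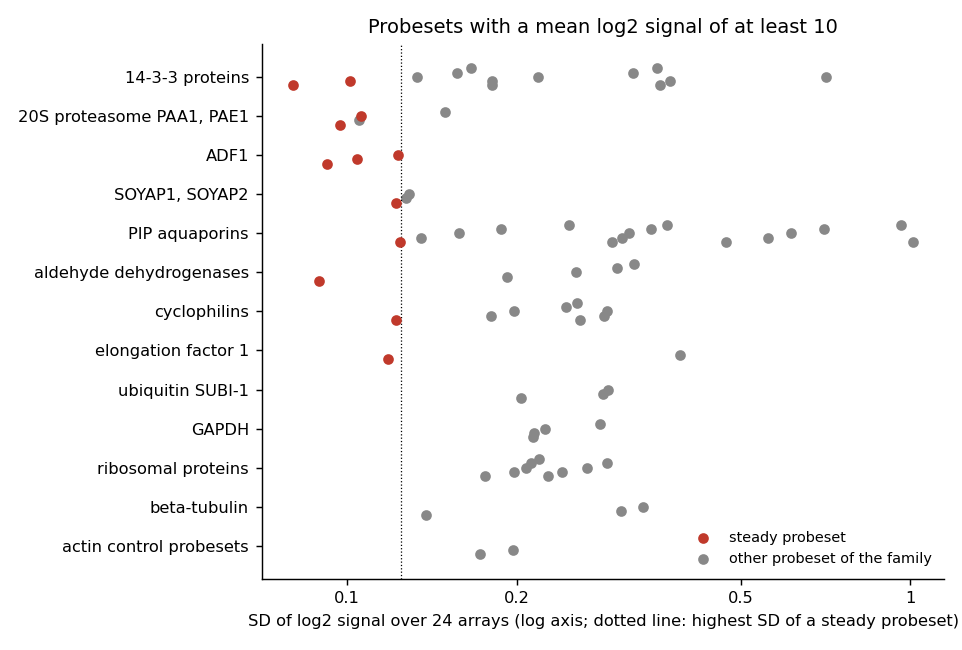
SD of log2 signal (x axis, log scale) of each probeset with a mean log2 level of at least 10, by gene family (y axis), with steady probesets in red and others in grey. The dotted line marks the highest SD of the steady probesets, 0.125. Aquaporins and 14-3-3 proteins hold both steady probesets and probesets with SDs several times higher.

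The usual reference gene families gave 74 probesets, of which 22 were at the level threshold and 1, CYP34, was a steady one. As deposited, the 22 had a median SD of 0.22, from 0.12 to 0.39, and the other abundant probesets had 0.24. TUBB, a beta-tubulin, was next at 0.14, rank 164 of 1528, with signals of 3037 to 4012 in HiPro (median 3694) and 2908 to 4009 in LoPro (median 3474). TUBB2, another beta-tubulin, had an SD of 0.34 and fell by 0.61 ± 0.18 in HiPro and by 0.59 ± 0.18 in LoPro (limma adjusted p = 0.012 and 0.017). Both TUBB2 calls were lost after median centring, the HiPro call also without HiPro replicate 2 or any of 4 single HiPro arrays, and the LoPro call without any one of the 3 LoPro replicates or either of 2 single LoPro arrays. The SDs of these families moved with the scaling. After quantile normalization TEFS1 had 0.05, and GAPC1 and RPS6, described below, had 0.09 and 0.11, and 0.12. Actin aside, only CYP34 on its steady probeset (0.14), TUBB2 (0.37), CYP1 (0.27) and RPL2 on Gma.1566.1.S1_at (0.27) had higher SDs than as deposited. The other abundant probesets then had a median of 0.20.

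Actin was the control of the study's quantitative RT-PCR. The actin probeset of the array's control set that reads the 3′ end, left out of the choice as a control, had signals of 4701 to 6952 in HiPro (median 5415) and 4699 to 6654 in LoPro (median 5520), at an SD of 0.17. It was higher at stage 4 than at stage 1 by 0.47 ± 0.09 in HiPro and 0.33 ± 0.09 in LoPro (limma adjusted p = 0.00046 and 0.0084), which is short of 1.5-fold. After quantile normalization the HiPro change was 0.24, and after median centring it was 0.60 and past 1.5-fold. The actin probeset from the middle of the message had an SD of 0.20. Which actin genes the study's primers read was not compared with these probes.

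SUBI-1, a polyubiquitin, had SDs of 0.20 and 0.29 on its 2 brightest probesets. GAPC1, a glyceraldehyde-3-phosphate dehydrogenase of glycolysis, had 0.28 and 0.22, and the brighter of its probesets rose in HiPro by 0.69 ± 0.16 (limma adjusted p = 0.002) but was at -0.09 after quantile normalization. RPS6, a protein of the small ribosomal subunit, likewise had 0.69 ± 0.12 in HiPro (adjusted p = 0.00022) and -0.13 after quantile normalization. RPS13 had SDs of 0.22 and 0.18. Below the level threshold, SKIP16 had an SD of 0.15 at a mean log2 level of 10.47, glucose-6-phosphate dehydrogenase (G6PDH) had 0.27 and 0.22, and the ubiquitin-conjugating enzyme UBC4 had 0.22 and 0.35. Of the array's 48 ribosomal RNA probesets, the 24 with RC in their name were counted in these families, and 20 of them rose in HiPro and 19 in LoPro. Of the 24 without RC, which had a median log2 level of 6.21 against 10.09 for those with it, 12 rose in HiPro and 9 in LoPro. Among all probesets tested, 24.2% were called in HiPro and 21.7% in LoPro, up or down.

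Much of the list changed with how the arrays were scaled. With quantile normalization, 24 of the 100 stayed among the 100 steadiest, and with each array centred on its median, 76 stayed. The quantile list had a median level of 13.48, and its probesets had a median SD of 0.26 as deposited. The 337 abundant probesets with a mean log2 level of at least 13 had a median SD of 0.29 as deposited and 0.15 after quantile normalization. Of these, 65 entered that list. Quantile normalization gives probesets of equal rank the same value on every array, which can lower the SD of those always near the top. No transcript is called steadier from these lower SDs. The 100 steady probesets themselves had a median SD of 0.10, from 0.05 to 0.23, after quantile normalization, and the other abundant ones had 0.20. ADF1 on Gma.6150.2.S1_s_at moved to 0.199 and LOC732582 on Gma.13580.2.S1_x_at to 0.235. These are among the brightest of the 100.

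The sign of the small stage changes moved with the scaling too. The median HiPro change of the 100 was 0.07 as deposited, with 76 positive and 24 negative. It was -0.06 after quantile normalization, with 36 positive and 64 negative, and 0.20 after median centring, with 96 positive and 4 negative. Over all probesets tested, the HiPro median was -0.01, 0.05 and 0.12 under these scalings. No direction is therefore given to the 100 in HiPro. With a measure that needs no array scaling, the mean SD of the log2 ratio to every other abundant probeset, 26 of the 100 stayed.

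**Figure D5:**
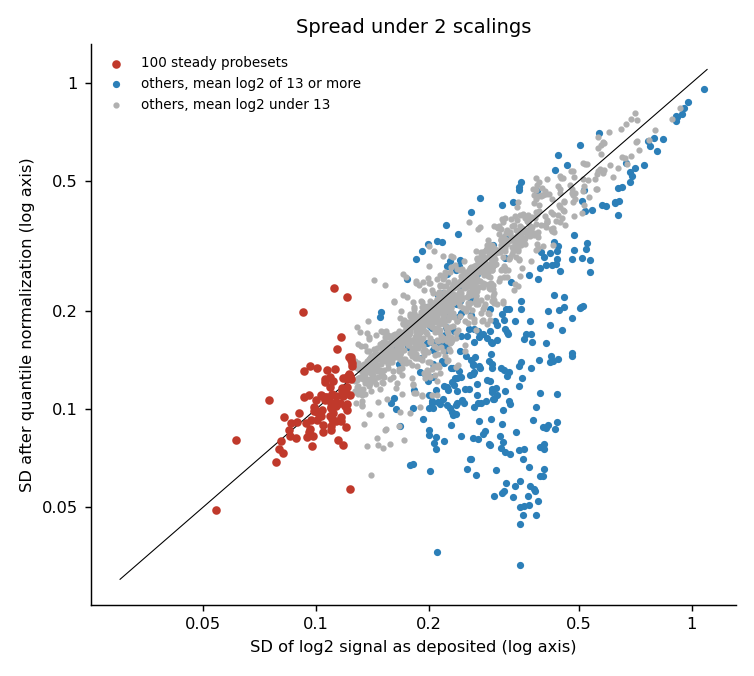
SD of log2 signal as deposited (x axis) and after quantile normalization (y axis), both on log scales with a line at equal values, for the abundant probesets, with the 100 steady ones in red and the others with a mean log2 level of at least 13 in blue. The red points have a median SD of 0.11 as deposited and 0.10 after quantile normalization, and the 337 probesets at 13 or more, 5 of them red, have 0.29 and 0.15.

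Steadiness under all 3 of quantile normalization, median centring and the ratio measure was shared by 10 of the 100. They were Gma.3977.1.S1_s_at, Gma.11321.2.S1_x_at, Gma.3353.1.S1_at, LOC547883, GmaAffx.83780.1.S1_at, LOC100526922, LOC100499741, ADF1 on Gma.6150.2.S1_x_at, LOC732582 on Gma.13580.1.S1_s_at and Gma.1630.1.S1_x_at. Of these, 7 were also in both lists chosen on a single line, from arrays that the rule used too. Among the 10, SDs as deposited were 0.054 for Gma.3977.1.S1_s_at, 0.089 for LOC547883 and 0.104 for ADF1, which was in the single-line list of LoPro but not in that of HiPro. ADF1 had signals of 5042 to 6576 in HiPro (median 5725) and 5333 to 6544 in LoPro (median 5982) on that probeset. Its HiPro and LoPro arrays overlapped over most of this span. A further LOC732582 probeset of the same design cluster, Gma.13580.2.S1_a_at, had an SD of 0.206 as deposited. Its change between stages 4 and 1 was 0.52 ± 0.13 in HiPro (limma adjusted p = 0.0039), short of 1.5-fold, and 0.13 ± 0.13 in LoPro.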

How the data were processed

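Seed RNA of 2 lines at 4 stages was measured on 24 Affymetrix soybean arrays. The deposited intensity values are linear MAS5 signals, scaled per array by the authors, and no version is given in the sources used here. The study's methods used RMA as the main normalization and MAS5 for comparison; RMA values were not used here, so the methods' t-test was run on the MAS5 signals. The signals were turned to log2 and no further filter or pseudocount was applied. All 37694 probesets, which include 53 soybean controls of the 122 AFFX ones, were fitted with limma 3.58.1 (R 4.3.3, 8 group means, eBayes with trend), with Benjamini-Hochberg adjustment over all of them. Calls needed an adjusted p under 0.05 and a 1.5-fold change. The fit was tested on simulated data with known changes. The choice was tested only on simulated steady probesets set far apart from the rest. That says nothing on how the choice works at the dense limit found here. The number of arrays limits the precision, and the p-values measure the spread between 3 pools of plants per group. The p-values of the line comparison treat stages of the same plants as separate. Arrays of the same plant pool are paired by the methods, and their residuals correlated at a mean of 0.10 (0.08 between lines at an equal replicate number, -0.04 otherwise).

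Gene symbols came from the platform annotation, which gave 8677 probesets exactly 1 symbol, without descriptions, so families were formed by symbol. Named were the 10 steadiest, those with informative symbols, the 5 on each side of the limit, the 3 largest changes and differences, and up to 2 of the brightest probesets of a reference family. The members and lists were chosen with earlier results of these data known. Alternatives were other scalings, level thresholds and measures of steadiness, blocks, the methods' t-test and leaving out arrays or pools. No sequences were used here.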

Additional observations from a re-analysis of the deposited data

How the results depend on the processing

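The number of steady probesets kept was 24 of 100 with quantile normalization, 36 with a log2 level of at least 10, 25 with at least 12, 51 when ranked by the SD of the group means and 26 by the ratio to other probesets. Raising the level to 12 only takes probesets away, so each steady one still at that level had to stay. The 25 therefore counts levels and says nothing on steadiness. Leaving out single arrays kept 90 to 98, and leaving out a plant pool 79 to 89. The probesets at the level threshold numbered 3541 at 10, 612 at 12 and 2482 for a mean of at least 11. Fitting only 1534 abundant probesets and controls called 464 in HiPro, 286 in LoPro, 0 between the lines and 876 in the F test, from fewer probesets tested. The methods' t-test called 5070 in HiPro, 2956 in LoPro and 13 between the lines. Between the lines, 37 were called, 65 with the replicate number as a replicate block, 10 on plant pool means and 20 to 175 without one pool, with 175 without LoPro replicate 3 and 20, 22 and 24 without HiPro replicate 2, HiPro replicate 3 and LoPro replicate 2. The cause was not tested. The interaction gave 0 to 9, with 9 without LoPro replicate 3, 2 without HiPro replicate 3 and 1 without HiPro replicate 1. With the plant pool as a replicate block, 9791 were called in HiPro and 8961 in LoPro, and the F test with the replicate number gave 15448. None of the 100 was called in a stage or line contrast under any of these settings, with the fold limit. Among the main counts and medians, 24 moved under an alternative and 175 stayed within the spread or within 1.5 times. Among the others, 2 moved and 198 stayed. The planned promoter windows were not run, as no promoter sequences were used here. Dim probesets below the level threshold were not ranked.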
